A study of Rattus norvegicus with 5 samples.

Results

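Voltage-gated sodium and calcium channel genes were followed in hippocampus samples from rats labelled P5. The members were the probe sets (groups of short probes for a transcript) whose only gene symbol begins with Scn and a digit, or with Cacn. This rule gave 43 of the 8740 probe sets that are not array controls. They stand for 24 genes, 10 of sodium channels and 14 of calcium channels. The RefSeq annotation of GRCr8 holds 40 genes with such names, and the other 16 were not analysed here. Total RNA of each sample was measured on 1 single-colour array, in 2 samples exposed to alcohol before birth, 1 sample from an isocaloric diet, which serves as a feeding control, and 2 samples from a control diet. All 5 samples share the tissue and the P5 label. The labels name no strain, sex, alcohol dose or feeding schedule. Nor do they tell single animals from pools, so p-values measure the spread between these samples, which may be technical.

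Voltage-gated sodium channels open when a neuron depolarises and carry the rising phase of the action potential. Voltage-gated calcium channels turn that depolarisation into calcium entry, which triggers transmitter release at nerve terminals and, in the cell body and dendrites, signals to enzymes and to the nucleus. Each channel has a large pore-forming subunit, called alpha in sodium and alpha1 in calcium channels, and smaller subunits that set its trafficking and gating. In the rodent hippocampus the first weeks after birth are a time when axons and synapses form and when channel subunits typical of immature neurons give way to those of mature ones.

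The values are intensities on a linear scale, and the mean of log2 intensity over the 5 arrays decided which probe sets were tested. Those under the 40th percentile, which lies at an intensity of about 33.4, were described and not tested in the main fit. Of the 24 channel genes, 16 (66.7%) had a brightest probe set above this filter, against 67.0% of all genes with a single symbol. Calcium channel genes passed in 12 of 14 cases and sodium channel genes in 4 of 10. Of the 43 probe sets, 21 passed. Brightness depends on the probes as well as on the RNA, so the order of probe sets is not an order of transcript amounts. Closest to the filter lay Cacna1e (percentile 40.4) and Cacna1d (41.0) above it, and Scn4a (34.9) and a second probe set of Cacna1c (34.8) under it.

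**Figure D1:**
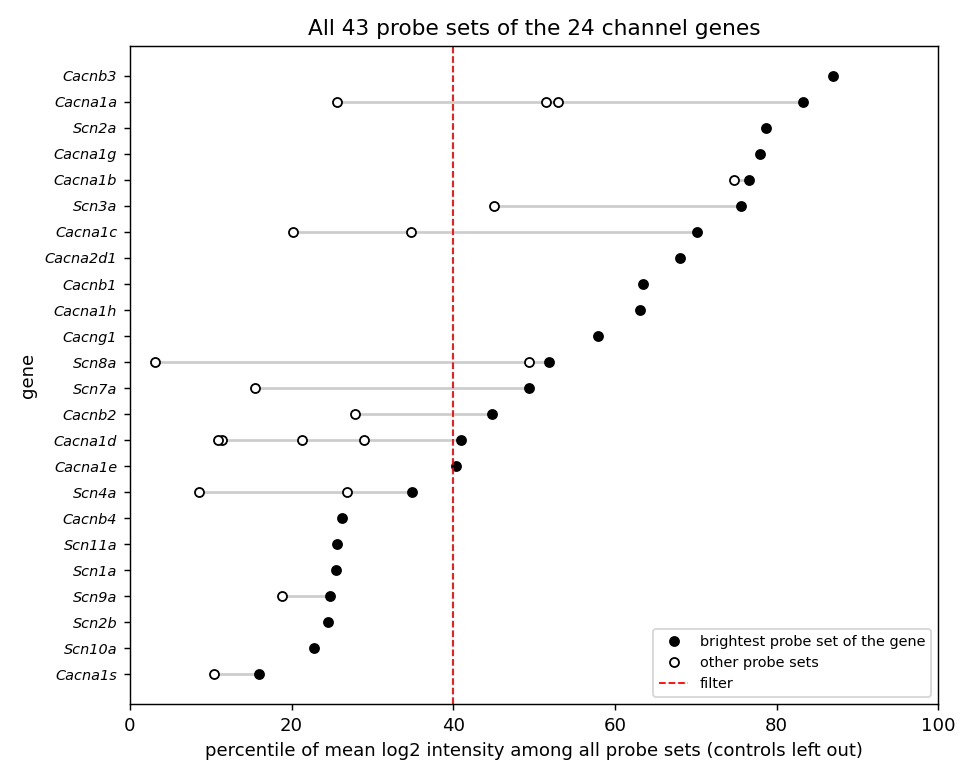
Percentile of the mean log2 intensity over 5 arrays, among 8740 probe sets, for each of the 43 probe sets of the 24 channel genes. Filled points are the brightest probe set of a gene and open points its others. The dashed line is the filter at the 40th percentile, and 16 filled points lie to its right, from Cacna1e to Cacnb3.

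All 8 neuronal marker genes with a probe set lay above the filter, against 67.0% of all genes with a single symbol. Passing the filter does not measure the share of neurons in the tissue. The summed intensity of these 8 was 5765 and 6536 in fetal alcohol, 5528 in isocaloric and 6571 and 5961 in control diet samples. Gap43, a growth cone protein, made up much of that sum, with 2568 and 3069 in fetal alcohol, 2699 in isocaloric and 3029 and 2563 in control diet samples. Single markers differed from it. Syn1, a synaptic vesicle protein, had 296 and 441 in fetal alcohol, 389 in isocaloric and 504 and 620 in control diet samples. Of the hippocampal neuron markers, 5 of 6 with a probe set were above the filter. Of these, 1 was lower in fetal alcohol than in control diet at an unadjusted p under 0.05, against 3.95% of all tested probe sets. This was Neurod2, a neuronal transcription factor, with 83.8 and 110.1 in fetal alcohol, 88.0 in isocaloric and 185 and 150.4 in control diet samples, a log2 difference of -0.73 ± 0.25 (SE, limma adjusted p = 0.725). Its relative Neurod1 had 109 and 220.5 in fetal alcohol, 126 in isocaloric and 241 and 251 in control diet samples. In all 3 of Syn1, Neurod1 and Neurod2 the fetal alcohol and isocaloric values lay below both control diet values, as they did for Cacnb3 and Cacna1e. These 3 were picked from lists that ran both ways. Against control diet, 4 neuronal markers were higher in fetal alcohol and 4 lower. Of the hippocampal neuron markers above the filter, 3 were higher and 2 lower, with a median log2 difference of 0.13. The part of these markers in the channel values was not tested. Markers of the choroid plexus, the fluid-secreting epithelium beside the hippocampus, differed much more. The summed intensity of the 6 with a probe set was 1219 and 311.5 in fetal alcohol, 6105 in isocaloric and 5716 and 5371 in control diet samples. Ttr alone dominated the differences in this sum. It had 1004 and 69.2 in fetal alcohol, 5391 in isocaloric and 5297 and 4886 in control diet samples. Of the 5 above the filter, 4 were lower in fetal alcohol than in control diet, and Prlr was nearly level (0.04). The part of this difference in the channel values was not tested. In whole tissue, fewer cells of a type and less RNA per cell cannot be told apart.

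Among sodium channel alpha subunits of the brain, Scn2a and Scn3a had bright probe sets, Scn8a had moderate ones and Scn1a was under the filter. Scn2a encodes an alpha subunit found early along immature axons and their initial segments. It measured 148 and 287 in fetal alcohol, 195 in isocaloric and 164 and 175 in control diet samples. The fetal alcohol arrays lay on either side of all others. Scn3a encodes an alpha subunit known for its high level in the rodent brain around birth. Its brighter probe set measured 89.5 and 239 in fetal alcohol, 179 in isocaloric and 152 and 182 in control diet samples. The dimmer one gave 22.1 and 72.6 in fetal alcohol, 52.4 in isocaloric and 38.8 and 39.1 in control diet samples. For Scn3a, as for Scn2a, fetal alcohol array 1 was thus the lowest of the 5 and fetal alcohol array 2 the highest, at both probe sets. Scn8a, whose product takes over at mature initial segments and nodes, had 58.9 and 64.7 in fetal alcohol, 48.5 in isocaloric and 63.9 and 50.9 in control diet samples. Fetal alcohol and control diet values of Scn8a overlapped. Scn1a, typical of inhibitory neurons in the mature brain, measured between 9.36 and 20.1 on the 5 arrays.

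The other sodium channel alpha subunit genes are known mainly from other tissues, and all but Scn7a were under the filter. Scn7a encodes a channel-like protein that senses extracellular sodium. It had 47.5 and 61.6 in fetal alcohol, 63.4 in isocaloric and 46.2 and 39.5 in control diet samples. Both fetal alcohol values and the isocaloric value lay above the control diet values. Scn9a, Scn10a and Scn11a are typical of peripheral sensory neurons and Scn4a of skeletal muscle. Their brightest probe sets ranged over the 5 arrays from 12.5 to 20.6 for Scn9a, from 6.91 to 21.1 for Scn10a, from 8.30 to 29.1 for Scn11a and from 23.4 to 30.3 for Scn4a. Scn2b does not belong to this group, since it encodes an accessory subunit with a single immunoglobulin-like domain. It was under the filter too, with 14.1 and 28.8 in fetal alcohol, 4.08 in isocaloric and 4.49 and 36.9 in control diet samples. Of the sensory neuron markers 3 of the 5 with a probe set were above the filter, against 67.0% of all genes with a single symbol. Trpv1 and P2rx3 were under it. The summed intensity of the 5 was 310 and 432 in fetal alcohol, 272 in isocaloric and 279 and 273 in control diet samples. Much of the difference between the fetal alcohol arrays lay in Tac1. It had 109.5 and 215 in fetal alcohol, 100.2 in isocaloric and 100.1 and 93.0 in control diet samples. Calca and Prph were slightly lower on fetal alcohol array 2. The part of sensory neurons in the channel values was not tested.

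Of the calcium channel alpha1 subunits, those of transmitter release came next. Cacna1a encodes the P/Q-type pore, a main calcium source for fast release. Its brightest probe set had 203 and 241 in fetal alcohol, 275 in isocaloric and 316 and 239 in control diet samples. Fetal alcohol array 2 and control diet array 2 were nearly level. Cacna1b, the N-type pore, had 155 and 214 in fetal alcohol, 151 in isocaloric and 179 and 153 in control diet samples, so its groups overlapped. Cacna1e, the R-type pore, was dim, with 32.3 and 33.4 in fetal alcohol, 28.5 in isocaloric and 35.5 and 41.4 in control diet samples. Here both fetal alcohol values and the isocaloric value lay below the control diet values.

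L-type pores couple activity to gene expression in neurons. Cacna1c had 128 and 96.4 in fetal alcohol, 135 in isocaloric and 164 and 103 in control diet samples. Cacna1d had 32.3 and 35.2 in fetal alcohol, 36.8 in isocaloric and 40.4 and 31.3 in control diet samples. The fetal alcohol and control diet values overlapped for both. Cacna1s, the L-type pore of skeletal muscle, was under the filter, with 7.71 to 8.91 at its brighter probe set. T-type pores open near the resting potential and support burst firing. Cacna1g had 214 and 196 in fetal alcohol, 189 in isocaloric and 158 and 156 in control diet samples. All 3 arrays other than those of the control diet lay above it, and the 2 control diet values were close together. Cacna1h had 111 and 88.3 in fetal alcohol, 83.9 in isocaloric and 89.1 and 83.2 in control diet samples, with overlap.

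Beta subunits bind the pore inside the cell and bring it to the membrane. Cacnb3 was the brightest probe set of the family. It had 312 and 276 in fetal alcohol, 263 in isocaloric and 457 and 375 in control diet samples. Fetal alcohol and isocaloric values all lay below both control diet values. Cacnb1 had 105 and 80.2 in fetal alcohol, 96.9 in isocaloric and 87.6 and 89.1 in control diet samples, with overlap. Cacnb2 had 26.8 and 67.1 in fetal alcohol, 56.5 in isocaloric and 37.5 and 31.1 in control diet samples at its brighter probe set. As for Scn2a and Scn3a, the fetal alcohol arrays of Cacnb2 enclosed all others at this probe set. The share of all tested probe sets with this order is not given here. Some genes outside the family had it too, such as the contactin Cntn1. It had 103 and 253 in fetal alcohol, 235 in isocaloric and 163 and 167 in control diet samples. Others, such as Cacnb3, did not.

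Cacna2d1 encodes the extracellular alpha2delta subunit that binds gabapentin. It had 100.2 and 155 in fetal alcohol, 111 in isocaloric and 88.4 and 116 in control diet samples, with overlap. Cacng1 encodes the gamma subunit of the skeletal muscle channel. It had 92.6 and 67.8 in fetal alcohol, 57.7 in isocaloric and 78.6 and 74.7 in control diet samples, with overlap. Of the skeletal muscle markers, 5 of the 8 with a probe set were above the filter. Among these, Myh3 measured 244 to 406.5 and Acta1 129 to 182 on the 5 arrays. Under the filter, Myog, a regulator that defines muscle, measured 5.60 to 9.19. The summed intensity of the 8 was 578 and 689 in fetal alcohol, 775 in isocaloric and 771 and 714 in control diet samples. Their part in the Cacng1 value was not tested.

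**Figure D2:**
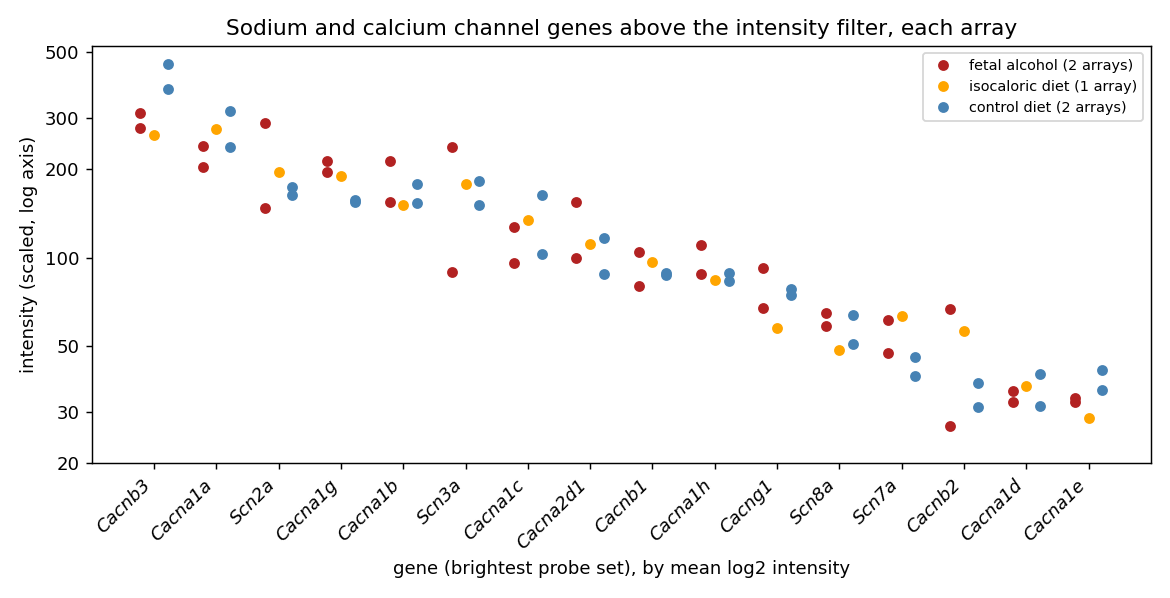
Intensity of the 16 channel genes above the filter at their brightest probe set, on a log axis, with 1 point per array. Fetal alcohol arrays are red, the isocaloric array orange and control diet arrays blue. Cacnb3 shows both fetal alcohol points (276 and 312) and the isocaloric point (263) below the control diet points (375 and 457), while the fetal alcohol points of Scn3a (89.5 and 239) enclose all others.

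Fetal alcohol samples were first set against control diet samples, to see whether channel transcripts changed with prenatal exposure. No channel gene passed the threshold, an adjusted p of 0.05 over all 5244 tested probe sets. Cacnb3 was lowest and Cacna1g highest relative to control diet. For Cacnb3 the log2 difference was -0.48 ± 0.24 (SE, n = 2 arrays each), with an adjusted p of 0.911 in limma. For Cacna1g it was 0.37 ± 0.23 (adjusted p = 0.948). The 2 T-type genes both had positive differences and the 2 L-type genes above the filter both negative ones. Of these only the Cacna1g difference exceeded its SE. The dimmer Cacna1d probe sets all had positive differences when fitted without a filter (0.04 to 0.42). Cacna1c turned positive without control diet array 1. Over the 16 genes the median log2 difference was 0.07, against 0.0049 over all tested probe sets. Differences were positive in 10 of 16 genes, and 50.5% of all tested probe sets were positive.

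Counts of channel genes were close to or under the background. With limma, 0 of 21 channel probe sets passed after Benjamini-Hochberg adjustment, as did 0% of all tested probe sets. At an unadjusted p under 0.05 there were also 0 of 21, against 5.61% of all, and the smallest unadjusted p was 0.0767 for Cacnb3. No channel gene differed by 1.5-fold or more, against 6.37% of all probe sets. Fetal alcohol and control diet arrays did not overlap in 4 of 16 genes (25%), against 34.5% of all tested probe sets. These 4 were Cacnb3 and Cacna1e, whose fetal alcohol values were lower (2 of 16, against 17.7% of all), and Cacna1g and Scn7a, whose values were higher (2 of 16, against 16.8%). In all 4 the isocaloric array lay on the fetal alcohol side of both control diet arrays. The same 2 control diet arrays enter on both sides, so this is not an independent result. The share of all tested probe sets with this joint order is not given here. Alone, the isocaloric array lay above both control diet arrays in 38.3% of all tested probe sets and below both in 37.5%.

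The remaining differences from control diet did not pass the threshold, and Cacna1a and Scn7a had differences larger than their SE. Among sodium channel genes Scn7a had a log2 difference of 0.28 ± 0.24, Scn2a 0.27 ± 0.32, Scn8a 0.10 ± 0.24 and Scn3a -0.16 ± 0.40 (SE). Release-type pores had -0.30 ± 0.25 for Cacna1a, -0.17 ± 0.24 for Cacna1e and 0.13 ± 0.25 for Cacna1b. The L-type pores had -0.21 ± 0.28 for Cacna1c and -0.06 ± 0.25 for Cacna1d, and the T-type pore Cacna1h had 0.18 ± 0.23. Accessory subunits had 0.27 ± 0.28 for Cacna2d1, 0.27 ± 0.35 for Cacnb2, 0.05 ± 0.23 for Cacnb1 and 0.04 ± 0.24 for Cacng1. Adjusted p-values of the 16 genes lay between 0.911 and 0.997. A p above the threshold does not show equal levels. The 95% interval of the log2 difference stayed within -1 and 1, a 2-fold change either way, for 13 of 16 genes, and reached beyond for Scn3a (-1.07 to 0.75), Cacnb2 (-0.54 to 1.07) and Cacnb3 (-1.03 to 0.06).

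**Figure D3:**
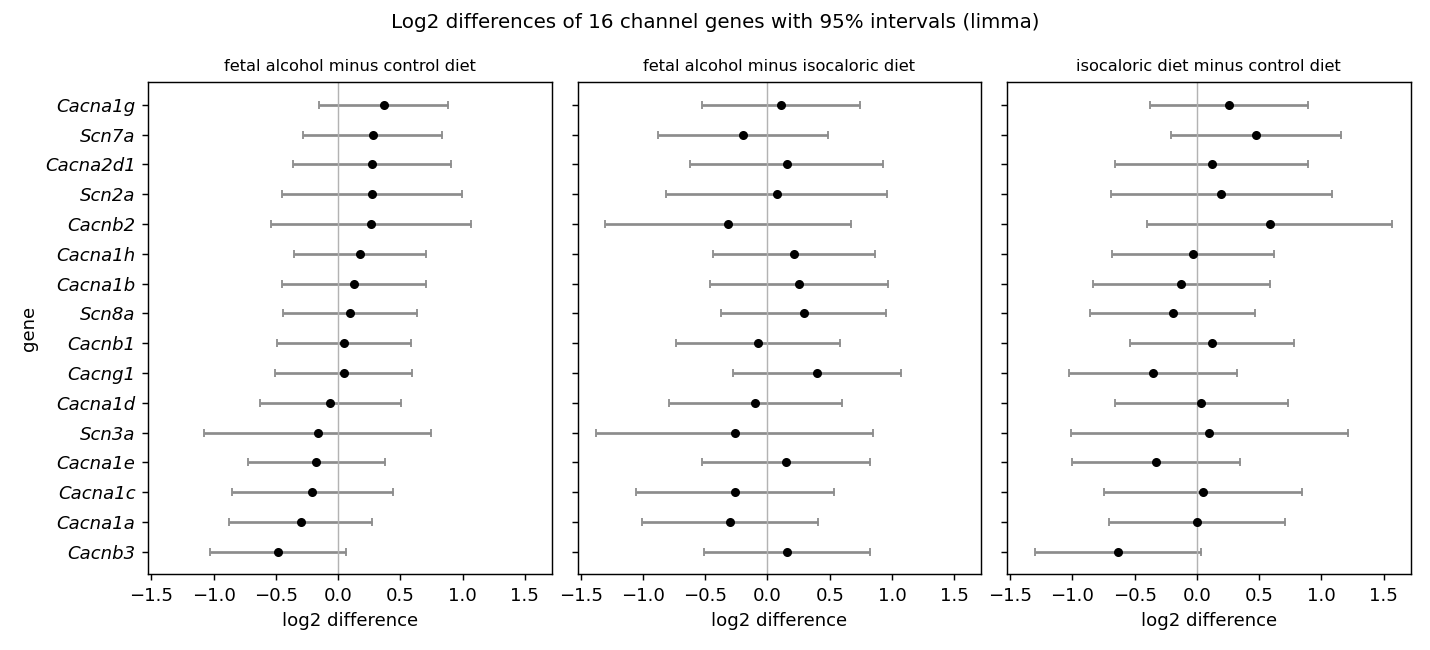
Log2 difference (points) and 95% interval (bars) from limma for 16 channel genes in 3 comparisons, ordered by fetal alcohol minus control diet. Every interval crosses 0 in all 3 panels. Scn3a and Cacnb2 have the widest intervals in the left panel, reaching -1.07 and 1.07.

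Single arrays set the direction for several genes at their brightest probe set. Without fetal alcohol array 1 the log2 difference from control diet was 0.72 for Scn2a, 0.495 for Scn3a, 0.79 for Cacnb2 and 0.56 for Cacna2d1. Without fetal alcohol array 2 it was -0.18 for Scn2a, -0.82 for Scn3a, -0.26 for Cacnb2 and -0.02 for Cacna2d1. The median over the 16 genes was then 0.093 without fetal alcohol array 1 and -0.058 without array 2. Cacnb3 kept a negative difference with any 1 array left out (-0.62 to -0.34), and Cacna1g a positive one (0.31 to 0.43). Their fetal alcohol and control diet arrays did not overlap, so leaving out 1 array could not change the sign. The same holds for Cacna1e (-0.26 to -0.09) and Scn7a (0.12 to 0.44). Cacna1a (-0.49 to -0.11) and Cacna1h (0.03 to 0.33) also kept their sign, although their arrays overlapped. Cacna1c had 0.10 without control diet array 1 and -0.52 without array 2. At an unadjusted p under 0.05 the count of channel probe sets was 4 of 21 without fetal alcohol array 1, against 12.9% of all tested probe sets, and 2 of 21 without array 2, against 15% of all. In these fits fetal alcohol is 1 array, assumed to vary like the others, and the residual spread, with 1 degree of freedom, comes from the control diet arrays alone. Under that assumption the smallest adjusted p that any named channel gene reached with 1 array left out was 0.157, for Scn3a without fetal alcohol array 2.

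Some channel genes differed more between the 2 fetal alcohol arrays than between groups. Array 2 minus array 1 gave log2 differences of 1.32 for Scn3a, 1.06 for Cacnb2 and 0.91 for Scn2a. The dimmer Scn3a probe set gave 1.35, but the other Cacnb2 probe set, which was under the filter, gave 0.11. At their brightest probe sets Scn3a, Cacnb2 and Scn2a, 3 of 16 genes (18.8%), were at least 1.5-fold higher on array 2, against 14.8% of all tested probe sets. The share was thus near the background, and 0 were as much lower, against 5.72%. Between the control diet arrays 1 of 16 genes (6.25%), Cacna1c, was 1.5-fold apart, against 7.61% of all. Between the control diet arrays, array 2 minus array 1 gave 0.25 for Scn3a, -0.21 for Cacnb2 and 0.08 for Scn2a. The median absolute difference over the 16 genes was 0.328 between the fetal alcohol arrays and 0.207 between the control diet arrays, against 0.304 and 0.203 over all tested probe sets. The fetal alcohol arrays lay farther apart than their mean lay from the control diet mean in 12 of 16 genes (75%), against 66.4% of all. Some neuronal markers were higher on array 2 in fetal alcohol, but in control diet as well. Snap25 had 142 and 262 in fetal alcohol and 138 and 212 in control diet samples. Map2 had 392 and 660 in fetal alcohol and 465 and 696 in control diet samples. Others, such as Syp with 1112 and 862 in fetal alcohol and 1243 and 978 in control diet samples, ran the other way. Their part in the channel values was not tested.

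**Figure D4:**
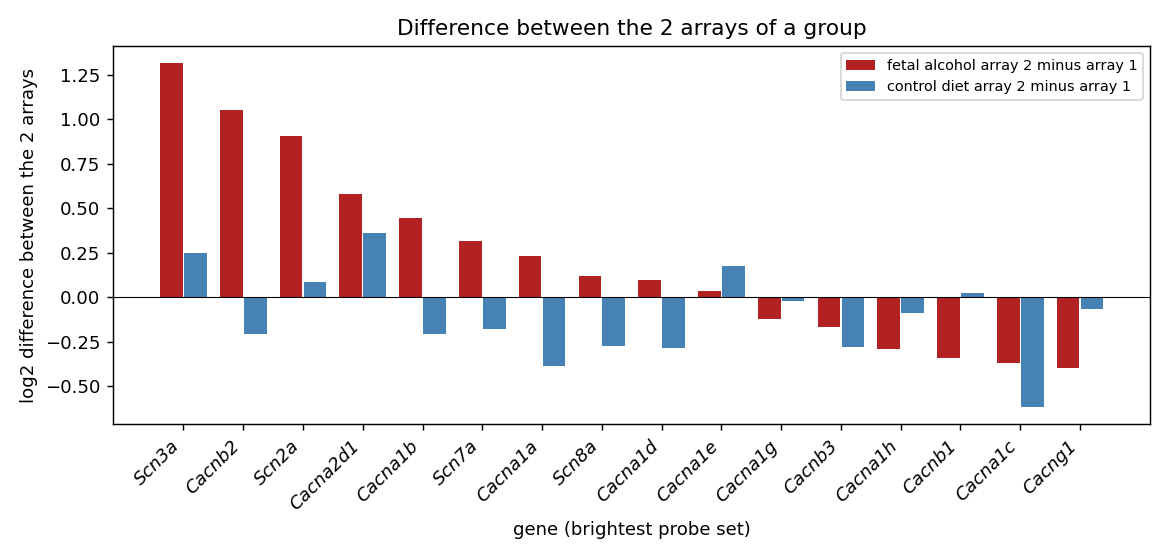
Log2 difference between the 2 arrays of a group for the 16 channel genes, array 2 minus array 1, with fetal alcohol in red and control diet in blue. Scn3a (1.32), Cacnb2 (1.06) and Scn2a (0.91) have the tallest red bars, and the blue bars lie between -0.62 and 0.36.

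Scn3a and Scn2a are direct neighbours among protein-coding genes on rat chromosome 3 in GRCr8, and Scn1a, Scn9a and Scn7a follow each other in a second run on the same chromosome. The RefSeq windows around the annotated starts, 250 bases before to 50 after, are shown for Scn2a and Scn3a, whose lowest and highest values fell on the same 2 arrays, and for Cacnb3, which had the largest difference from control diet. The windows are at chr3:70710706-70711005 on the plus strand for Scn2a, chr3:70666149-70666448 on the minus strand for Scn3a and chr7:131666301-131666600 on the plus strand for Cacnb3, all in GRCr8 and written in the direction of the gene. Capitals mark the GC box GGGCGG and the TATA box TATAAA, searched on both strands. These motifs cannot overlap each other.
Cacnb3: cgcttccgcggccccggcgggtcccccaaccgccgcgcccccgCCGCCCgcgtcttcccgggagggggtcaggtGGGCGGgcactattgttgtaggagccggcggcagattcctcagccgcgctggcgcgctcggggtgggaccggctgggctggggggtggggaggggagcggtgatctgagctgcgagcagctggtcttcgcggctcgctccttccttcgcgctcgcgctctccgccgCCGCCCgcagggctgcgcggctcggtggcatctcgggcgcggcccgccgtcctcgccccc
Scn2a: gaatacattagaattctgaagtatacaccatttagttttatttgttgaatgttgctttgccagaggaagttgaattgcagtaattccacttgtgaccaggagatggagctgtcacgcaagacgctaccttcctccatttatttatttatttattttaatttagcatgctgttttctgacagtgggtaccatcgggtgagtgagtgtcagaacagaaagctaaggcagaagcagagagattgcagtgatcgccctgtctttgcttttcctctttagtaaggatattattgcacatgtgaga
Scn3a: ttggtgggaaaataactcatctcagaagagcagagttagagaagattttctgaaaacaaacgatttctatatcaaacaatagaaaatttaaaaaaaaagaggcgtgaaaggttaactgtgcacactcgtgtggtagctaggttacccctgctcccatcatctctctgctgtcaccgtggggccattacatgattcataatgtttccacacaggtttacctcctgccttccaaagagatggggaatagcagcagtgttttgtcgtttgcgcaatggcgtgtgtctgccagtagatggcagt
The Cacnb3 window had a G and C content of 77.7%, with 44 CpG pairs and 3 GC boxes, while those of Scn2a and Scn3a had 39.3% and 43.3%, with 4 and 7 CpG pairs and neither motif. RefSeq windows were matched for 18 of the 24 genes, 21 windows in all since Cacna2d1 and Cacnb2 have several. A GC box stood in 11 of the 21 (52.4%), against 33.1% of 33469 windows of all genes. The windows of the channel genes were also richer in G and C, with a median of 60.3% against 51.7%, and 3 of the 11 belong to Cacna2d1. Counted by gene, 9 of 18 had a GC box. A TATA box stood in 1 (4.8%), that of Cacna1s, against 14.2% of all. A match describes the letters only, and its absence says nothing about the factors that bind.

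Set against the feeding control, the fetal alcohol samples had a single isocaloric array as their partner, one that was assumed to vary like the others. Again 0 of 21 channel probe sets passed in limma, as did 0% of all tested probe sets, and 0 of 21 had an unadjusted p under 0.05, against 4.21% of all. None of the 16 genes differed by 1.5-fold or more, against 9.27%, and 9 of 16 differences were positive, against 49.7%. The largest difference was that of Cacng1, 0.40 ± 0.30 (SE), followed by Cacnb2 with -0.32 ± 0.43, Cacna1a with -0.30 ± 0.31, Scn8a with 0.29 ± 0.29 and Scn3a with -0.26 ± 0.49. Every adjusted p was 0.998. A second probe set of Cacna1a gave 0.48 ± 0.30, opposite in sign to the brightest. Cacnb3 and Cacna1g, which had the largest differences from control diet, differed from the isocaloric array by 0.15 ± 0.29 and 0.11 ± 0.28. The median over the 16 genes was 0.09, against -0.0029 over all tested probe sets, and -0.021 without fetal alcohol array 2. Of the 16 intervals, 11 stayed within 2-fold.

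The comparison of isocaloric with control diet concerned the feeding control itself. It shares its control arrays with the first comparison, so their values stand side by side and are not independent. Cacnb3 was again lowest, with a log2 difference of -0.63 ± 0.29 (SE, limma adjusted p = 0.746). It was the only one of 16 channel genes (6.25%) at least 1.5-fold lower, against 8.45% of all tested probe sets, and 0 were as much higher, against 4.12%. Differences were positive in 10 of 16, against 51.4%. Cacnb2 had 0.58 ± 0.43, Scn7a 0.47 ± 0.30, Cacng1 -0.35 ± 0.30 and Cacna1e -0.33 ± 0.29. None of the 21 channel probe sets passed in limma, as did 0% of all, and 0 of 21 had an unadjusted p under 0.05, against 6.81%. The isocaloric array lay above both control diet arrays in 5 of 16 genes (31.2%), against 38.3% of all probe sets, below both in 5 (31.2%), against 37.5%, and between them in 6. The median was 0.04, against 0.016 over all tested probe sets, and -0.091 without control diet array 2.

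Probe sets of the same gene did not always run together. Cacna1a had 3 probe sets above the filter, with log2 differences between fetal alcohol and control diet of -0.30, -0.14 and -0.10. Between isocaloric and control diet the same 3 gave 0.0018, -0.62 and 0.05. The second measured 67.2 and 56.4 in fetal alcohol, 41.1 in isocaloric and 80.0 and 58.9 in control diet samples. The second Cacna1b probe set, with 158 and 160 in fetal alcohol, 131 in isocaloric and 147 and 180 in control diet samples, differed by -0.03 from control diet, against 0.13 at the brightest. The second Scn8a probe set gave -0.20 and the brightest 0.10, and the second Scn3a probe set 0.07 and the brightest -0.16.

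The 22 dim probe sets lay between 1.45 and 36.9 on single arrays, where an added offset of 10.6 makes up much of the log2 value. In 7 of them both fetal alcohol arrays lay above both control diet arrays, in 2 below, and in 13 they overlapped. Over all 3496 probe sets under the filter these shares were 20.1% above and 14.5% below. Cacnb4, another beta subunit and under the filter, measured 26.5 and 25.1 in fetal alcohol, 18.1 in isocaloric and 14.4 and 4.24 in control diet samples. A second Cacnb2 probe set measured 25.7 and 28.5 in fetal alcohol, 25.8 in isocaloric and 7.43 and 8.66 in control diet samples. Scn10a measured 14.1 and 21.1 in fetal alcohol, 19.1 in isocaloric and 6.91 and 7.94 in control diet samples. When all probe sets were tested without a filter, these 3 and 2 dim probe sets of Cacna1d had an unadjusted p under 0.05 for fetal alcohol against control diet. That is 5 of 43 (11.6%), against 5.56% of 8740. None passed after adjustment, and the smallest adjusted p was 0.655, for Cacnb2. For fetal alcohol against isocaloric diet the count was 2 of 43, against 4.87%, and for isocaloric against control diet 5 of 43, against 6.51%. These last 5 were not all dim, since they include Cacnb3, the brightest channel probe set, which lay above the filter. The dim Cacnb2 probe set, Scn10a and a dim Cacna1d probe set were in both sets of 5, each higher than in control diet. Cacnb4 and the other Cacna1d probe set of the first 5 were not. Between fetal alcohol and isocaloric diet these 3 shared ones differed by 0.05, -0.09 and -0.29. Both comparisons with control diet use the same control arrays.

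Genes that work with these channels were examined as 6 lists. At an unadjusted p under 0.05 for fetal alcohol against control diet, 0 of 9 tested anchors and partners such as the contactin Cntn1 and the calmodulin gene Calm2 differed, with a median log2 difference of -0.06. Of release site partners, 1 of 11 was lower and 0 higher: Rab3a, a vesicle GTPase, had 481 and 543 in fetal alcohol, 296 in isocaloric and 820 and 804 in control diet samples, a log2 difference of -0.66 ± 0.22 (limma adjusted p = 0.725). Of calcium stores, pumps and buffers, 1 of 16 was lower and 0 higher. This was Slc8a1, a sodium-calcium exchanger, with 147 and 152 in fetal alcohol, 224 in isocaloric and 238 and 240 in control diet samples, a log2 difference of -0.64 ± 0.22 (adjusted p = 0.768). In that list 12 of 16 differences were positive, against 50.5% of all tested probe sets, with a median of 0.11. Among the anchors and partners 2 of 9 were positive and 7 negative. Kinases and the phosphatase acting on channels had 0 of 15, sodium channels of other families 0 of 5 and the sodium pump 0 of 3, with medians of -0.012, 0.12 and -0.011. The background is 1.66% of all tested probe sets higher and 3.95% lower at this p. For isocaloric against control diet, 4 genes of these lists were lower at an unadjusted p under 0.05 and 0 higher, against 5.43% and 1.37% of all. They were 1 of 9 anchors and partners, 1 of 11 release site partners, 1 of 5 sodium channels of other families and 1 of 3 sodium pump genes. The calcium stores list had 0 of 16 and the kinase list 0 of 15. Rab3a had the largest of these differences, -1.42 ± 0.27 (SE, adjusted p = 0.342), which is larger in size than its difference between fetal alcohol and control diet. The other 3, each given with its SE, were Mapk8ip2, a scaffold protein (-0.74 ± 0.28), Asic1, an acid-sensing channel (-0.78 ± 0.28), and Atp1b2, a sodium pump subunit (-0.79 ± 0.29). For fetal alcohol against isocaloric diet 1 gene, out of 11 release site partners, was higher and 0 of any list lower, against 2.67% and 1.54% of all. It was again Rab3a, with 0.77 ± 0.27 (adjusted p = 0.998). These comparisons share arrays. No gene of the 6 lists passed after adjustment in any of the 3 comparisons.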

How the data were processed

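Hippocampus RNA of 5 rat samples was measured on 1 array each. The authors deposited linear intensities, 1 for each probe set on each array; no label or header names the software or scaling. The 2% trimmed mean was 149.996 on every array, so the values were used as deposited. The number of arrays limits the precision. Gene names came from the platform annotation, updated by gene identifier where possible. The 59 control probe sets were left out, and log2(intensity + 10.605), the offset being the 20th percentile of all values, was used, which understates changes of dim probe sets. A single limma 3.58.1 model (R 4.3.3) with an intensity trend gave the 3 comparisons, 2-sided, with Benjamini-Hochberg adjustment over 5244 probe sets. Residual degrees of freedom were 2, and prior ones 6.30. The isocaloric array, without a replicate, borrows its spread from the others. The brightest probe set stood for a gene. Per-array values and errors were given for the genes with the largest differences in each comparison, the brightest genes and any at an unadjusted p under 0.05, and the rest of the genes above the filter, and intensities of dim members, were added after their values were seen. The fit was tested on simulated data. The members and lists were chosen with earlier results of these data known. Alternatives covered normalization, offset, filter, variance trend, a replicate block and each replicated array left out. Same-numbered deviations correlated at -0.113 over probe sets, in 1 pair only, so the numbers were not used as pairs. Promoter sequences are from RefSeq.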

Additional observations from a re-analysis of the deposited data

How the results depend on the processing

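No channel probe set passed the threshold under any alternative run, in any of the 3 comparisons, and none was past it in the main fit. Over all tested probe sets, the count for fetal alcohol against control diet was 0, and became 1 with quantile normalization, 9 with equal medians, 1 with an offset of 32, 17 without fetal alcohol array 1 and 25 without array 2 (fits in which 1 array stands for fetal alcohol and the spread comes from control diet); for fetal alcohol against isocaloric diet it was 0, and became 3, 3, 0, 10 and 12 under the same alternatives, and for isocaloric against control diet 11 without fetal alcohol array 1 and 13 without array 2. With 1 array left out the median of the channel genes ran from -0.058 to 0.097 for fetal alcohol against control diet, from -0.021 to 0.12 against isocaloric diet, and from -0.091 to 0.0601 for isocaloric against control diet; other alternatives moved these medians by less than the spread between replicates (SD 0.085). The 4 exposed and control arrays fitted with the replicate number as a block (replicate block) gave 0 of 21 channel probe sets and 8 of all 5244 past the threshold, against 0 and 0 for these arrays without it, and changed no other call. Crossing the numbers, chosen after seeing the data, gave 0 and 21. Uncalled differences changed sign when 1 array was left out. For fetal alcohol against control diet the ranges were -0.18 to 0.72 (Scn2a), -0.82 to 0.495 (Scn3a), -0.043 to 0.23 (Scn8a), -0.26 to 0.79 (Cacnb2), -0.018 to 0.56 (Cacna2d1), -0.52 to 0.10 (Cacna1c) and -0.15 to 0.24 (Cacng1). Against isocaloric diet they were -0.38 to 0.53 (Scn2a), -0.92 to 0.395 (Scn3a), -0.84 to 0.21 (Cacnb2) and -0.14 to 0.44 (Cacna2d1). For isocaloric against control diet they were -0.023 to 0.22 (Scn3a), -0.062 to 0.30 (Cacna2d1), -0.26 to 0.36 (Cacna1c), -0.19 to 0.196 (Cacna1a) and -0.076 to 0.011 (Cacna1h). In that comparison Cacna1a also had -0.034 with quantile normalization, and Cacna1h 0.012 with it and 0.023 with equal medians. The cause of these changes was not tested.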
